A study of Homo sapiens with 9 samples.

Results

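The double-stranded RNA sensor genes DDX58, IFIH1, DHX58 and EIF2AK2, and the related helicase gene DDX60, were followed across transfected KYSE30 cells. Each gene was represented by 1 probe, so 5 of the 47317 probes on the array are described here. The probes were selected by probe number, with earlier results of these same 9 arrays known. They were ILMN_1797001 for DDX58, which encodes RIG-I and is now named RIGI, ILMN_1781373 for IFIH1 (MDA5), ILMN_1678422 for DHX58 (LGP2), ILMN_1706502 for EIF2AK2 (PKR) and ILMN_1795181 for DDX60. The deposited tables give probe numbers alone, so this pairing came with the selection and was not checked against a probe annotation. Because the choice was made with the values in view, the levels below are a description, and no test was applied to them.

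KYSE30 is a cell line grown from a human squamous carcinoma of the esophagus. All 9 cultures were transfected with Lipofectamine and taken for RNA on day 3, and each gave 1 Illumina array. Of these, 4 received a microRNA (miR-181a, miR-181b, miR-32 or miR-455), 2 received a small interfering RNA against a regulatory subunit of PI3K (siPIK3R1 or siPIK3R3), and the others received a microRNA combination, an siRNA combination or a negative control. The control cells therefore also carried lipid and a transfected RNA. The sources used here do not give its sequence, the doses or the make-up of the combinations. With 1 array per group there is no replicate error, groups are set side by side with no p-value, and any gap between arrays may be one between cultures.

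RIG-I and MDA5 are helicases of the cytoplasm that bind double-stranded RNA and signal through the adaptor MAVS to switch on interferon genes. RIG-I is known for short RNA with triphosphate or blunt ends and MDA5 for long duplexes, while LGP2 belongs to the same family, lacks the signaling domains and modulates the other family members. PKR is a kinase that is activated by double-stranded RNA and stops translation by phosphorylating the initiation factor eIF2alpha. DDX60 is a helicase related to the Ski2 family that has been reported to associate with RIG-I-like receptors. All 5 genes are known to be induced by interferon, through elements that bind the factor ISGF3 or interferon regulatory factors and hold a repeated GAAA core.

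Stretches of the promoters are shown because induction by interferon is the trait these genes are known to share. RefSeq windows (GRCh38.p14) of 300 bases, from 250 before the annotated start to 50 from it on, were found for 4 of the 5 genes, DDX58 under its current symbol. The letters searched on both strands, chosen after the windows had been seen, were GAAANNGAAA (cores 2 bases apart) and GAAANGAAA (cores 1 base apart), which can overlap each other. Each of the 4 windows held at least 1 match of either kind, as did 6.40% of 35116 promoter windows of the same length, with 3.57% for the first spacing and 3.12% for the second. In the stretches below, on the minus strand, capitals mark the match nearest to the start, and the name gives the position of the window shown.
DDX58 (RIGI), chr9:32526376-32526414: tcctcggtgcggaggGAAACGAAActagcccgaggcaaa
IFIH1, chr2:162318681-162318720: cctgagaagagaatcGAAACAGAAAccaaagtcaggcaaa
EIF2AK2, chr2:37156962-37157001: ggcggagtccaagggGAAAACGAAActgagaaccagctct
DDX60, chr4:168318781-168318820: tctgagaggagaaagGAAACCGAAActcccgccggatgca
The IFIH1 match began 21 bases before the start, that of DDX60 53 bases before it, and that of EIF2AK2 lay across the start, from base -6 to base 4. DDX58 held only the narrow spacing, once, from base -203 to base -195, whereas the wide spacing occurred 3 times for IFIH1, 2 times for DDX60 and once for EIF2AK2. The IFIH1 matches at bases -159 to -150 and -153 to -144 overlapped each other, on the opposite strand. DDX60 also held the narrow spacing once, at bases -58 to -50, overlapping its wide match nearest to the start. A match of letters is a description and not a binding site.

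Signal and detection differed little between most arrays, but both combination arrays were dimmer. A probe counted as detected at a detection p-value under 0.01, the share of the array's negative control probes that were as bright, and 14304 to 15775 probes per array passed. Mean raw signal was 270 on the microRNA combination array and 223 on the siRNA combination array, against 343 to 468 on the other 7, with 418 for miR-181a and 406 for the control. Levels were therefore also put on a common log2 scale by background correction and quantile normalization. Neither the knockdown of PIK3R1 and PIK3R3 nor markers of the cell line were analysed here, because no other probe has a gene name.

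Each of the 5 sensor probes had its 2 lowest signals in the negative control and in miR-181a, and was higher in each of the other 7 transfections. The raw signals, which carry no normalization, already showed this for every probe, including on the dim combination arrays. In RNA from whole cultures, a higher level in each cell and a larger share of cells with the transcript cannot be told apart.

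**Figure D1:**
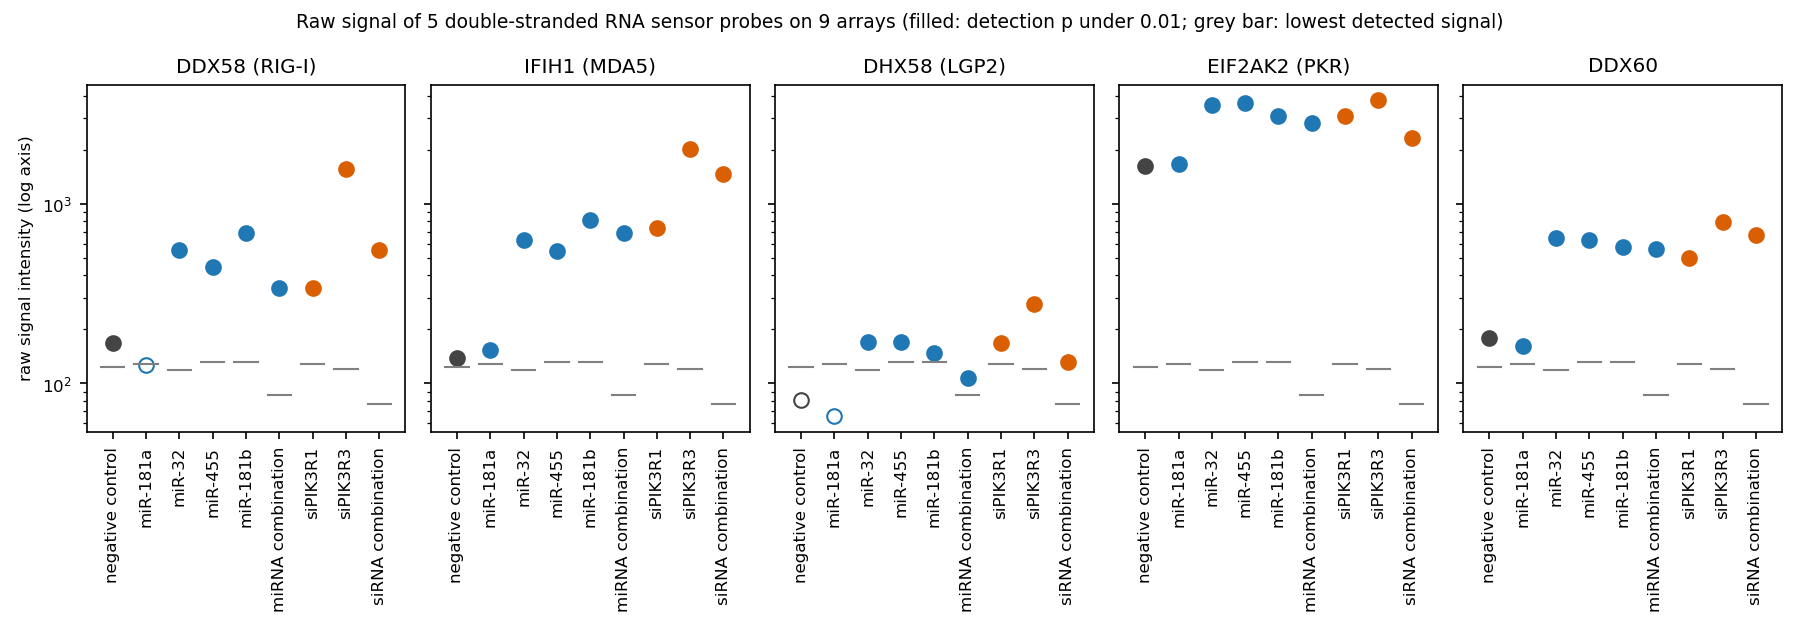
Raw signal intensity on a log axis of the 5 sensor probes on each of the 9 arrays, with 1 point per array, filled where detection p was under 0.01 and open where it was not. Grey bars mark the lowest detected signal of each array, and for every probe the control and miR-181a lie below the 7 other transfections.

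DDX58, whose product RIG-I starts the response to short duplexes, had a raw signal of 168 in the control and 126 in miR-181a. It measured 443 in miR-455, 553 in miR-32, 687 in miR-181b, 342 in siPIK3R1, 1574 in siPIK3R3, 341 in the microRNA combination and 557 in the siRNA combination. The siPIK3R3 signal stood far above all others, and miR-181a alone fell below detection, at a detection p of 0.0156. On the log2 scale the control lay at 6.55 and siPIK3R3 at 10.46, a difference of 3.91 or 15.05-fold. Under the other settings that kept the control as reference, this difference ran from 3.24 to 4.16. The siRNA combination was 9.85-fold above the control and miR-181b 6.98-fold. Lower down came the microRNA combination at 4.43-fold, miR-32 at 4.05-fold, siPIK3R1 at 3.41-fold and miR-455 at 2.98-fold. In miR-181a the probe stood at least 0.72 lower than the control on the log2 scale, a bound that does not reach 2-fold. By position on the array, which needs no normalization, 74.8% of all probes were dimmer than DDX58 in the control, 68.2% in miR-181a and 95.3% in siPIK3R3.

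IFIH1, which encodes the long-duplex sensor MDA5, showed the widest range of the 5. Its raw signal was 139 in the control, with a detection p of 0.00390, and 154 in miR-181a. It was 546 in miR-455, 633 in miR-32, 809 in miR-181b, 730 in siPIK3R1, 2016 in siPIK3R3, 685 in the microRNA combination and 1471 in the siRNA combination. Again siPIK3R3 was the brightest array, and the dim siRNA combination array came next. On the normalized scale their order turned, with a level of 11.26 in the siRNA combination (36.0-fold over the control) and 10.84 in siPIK3R3 (26.8-fold). The microRNA combination was 12.8-fold, miR-181b 11.3-fold, siPIK3R1 11.2-fold, miR-32 6.47-fold and miR-455 5.203-fold above the control, and miR-181a 1.15-fold. In the control this probe was near the detection limit, at 139 against a lowest detected signal of 124, so its folds rest on a dim reference. The siRNA combination difference, 5.17 on the log2 scale, ran from 4.28 to 5.55 under the other settings that kept the control as reference.

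DHX58, the gene of the modulator LGP2, was the dimmest case and crossed the detection limit between groups. It was not detected in the control, with a raw signal of 81.4 and a detection p of 0.557, nor in miR-181a, at 65.5 and 0.729. It was detected on each of the other 7 arrays, at 171 in miR-455, 169 in miR-32, 149 in miR-181b, 167 in siPIK3R1, 277 in siPIK3R3, 108 in the microRNA combination and 131 in the siRNA combination. The combination values were read on the 2 dim arrays, whose lowest detected signals were 85.7 and 76.6, against 119 to 132 on the others. Against the lowest detected level of the control, DHX58 was at least 3.71-fold higher in siPIK3R3, at least 2.94-fold in the siRNA combination and at least 2.02-fold in siPIK3R1. The bounds were 1.57-fold for miR-32, 1.498-fold for the microRNA combination, 1.49-fold for miR-181b and 1.47-fold for miR-455. The siPIK3R1 bound fell under 2-fold in other settings, at 0.58 on the log2 scale without background correction, 0.70 with an offset of 50 and 0.71 with median scaling. That of the siRNA combination did so without background correction, at 0.95, which left 4 of 5 sensor probes called there. No difference can be given between miR-181a and the control.

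DDX60, the helicase reported beside the RIG-I-like receptors, had a raw signal of 180 in the control and 161 in miR-181a. The other arrays gave 576 for miR-181b, 643 for miR-32, 630 for miR-455, 502 for siPIK3R1, 792 for siPIK3R3, 670 for the siRNA combination and 560 for the microRNA combination. These 7 signals lay close together, from 502 to 792, and well apart from the control and miR-181a. On the log2 scale the differences from the control ran from 1.99 in miR-455 (3.99-fold) to 3.41 in the siRNA combination (10.6-fold). Between these lay miR-32 at 2.10, siPIK3R1 at 2.28, miR-181b at 2.35, siPIK3R3 at 2.72 and the microRNA combination at 2.73. In miR-181a DDX60 was 0.31 lower than in the control.

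EIF2AK2, the gene of the kinase PKR, was well above background on every array and moved within the narrowest range. Its raw signal was 1632 in the control and 1678 in miR-181a, against 3085 in miR-181b, 3543 in miR-32, 3644 in miR-455, 3078 in siPIK3R1 and 3777 in siPIK3R3. The microRNA combination gave 2827 and the siRNA combination 2341. All 7 were above the control and miR-181a by raw signal, and the log2 differences from the control spanned only 0.94 (miR-32) to 1.51 (siRNA combination). In folds, this was 2.28 in miR-181b, 1.92 in miR-32, 1.93 in miR-455, 2.41 in siPIK3R3, 2.43 in siPIK3R1, 2.70 in the microRNA combination and 2.85 in the siRNA combination. Its difference in miR-181a was -0.02. Values this near 2-fold changed sides with the scaling: with median scaling the log2 differences were 0.92 in siPIK3R1, 0.89 in miR-181b, 1.23 in miR-32 and 1.12 in miR-455. That scaling shifted the median of all probes by -0.30, -0.22, 0.26 and 0.19 in the same arrays.

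**Figure D2:**
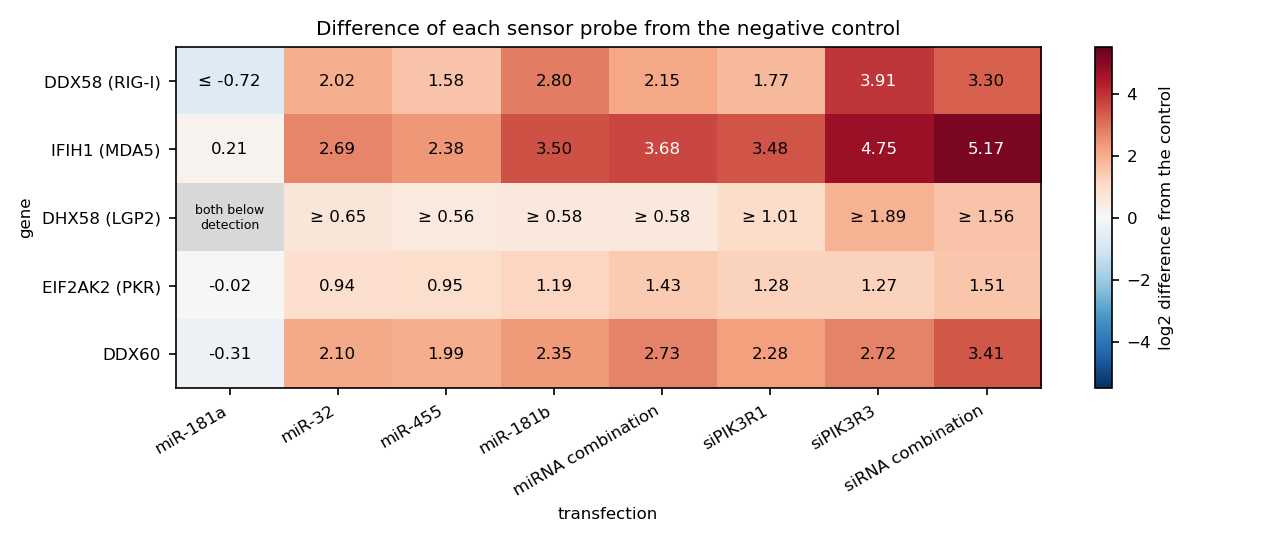
Log2 difference from the negative control of each sensor probe (rows) in each transfection (columns), 1 array per group, on the normalized scale. Signs mark bounds where the probe was undetected on one of the 2 arrays and grey a probe undetected on both, and the miR-181a column reads 0.21 for IFIH1, -0.02 for EIF2AK2, -0.31 for DDX60 and at most -0.72 for DDX58, while all other measured cells are above 0.

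A probe was called at a 2-fold difference where it was detected on at least 1 of the 2 arrays. In siPIK3R1, siPIK3R3 and the siRNA combination, 5 of 5 sensor probes were called higher than in the control, where 2.97%, 3.53% and 6.53% of all probes compared were. On the arrays of miR-181b and of the microRNA combination 4 of 5 were called, all but DHX58, against 1.95% and 4.32%. For miR-455 and miR-32 3 of 5 were called, DDX58, IFIH1 and DDX60, against 0.596% and 0.505%. In miR-181a none of the 4 probes that could be compared was called in either direction, where 0.284% of all probes, 45 of 15871, were called higher and 84 lower. The probes were chosen with these differences known, so the shares describe the arrays and support nothing about the genes. The median log2 difference of the sensor probes was 1.58 in miR-455, 1.77 in siPIK3R1, 2.02 in miR-32, 2.15 in the microRNA combination, 2.35 in miR-181b, 2.72 in siPIK3R3 and 3.30 in the siRNA combination. Over all probes compared, the medians of the 8 transfections lay between -0.03 and 0.01. On the whole array 60 of 47317 probes were 2-fold higher in each of the 7 transfections other than miR-181a. DDX58, IFIH1 and DDX60 were 3 of these 60, and no probe was 2-fold lower in each of the 7. All 8 comparisons share the control array. With the miR-181a array as the reference, an alternative chosen after the data were seen, 3 probes were called in miR-455 and miR-32, 4 in siPIK3R1, miR-181b and the microRNA combination, and 5 in siPIK3R3 and the siRNA combination. Of all probes compared, in the same order of arrays, 0.529%, 0.498%, 6.17%, 3.16%, 5.25%, 3.54% and 7.62% were called higher with that reference.

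The miR-181a and miR-181b arrays fell on opposite sides of this split, and the microRNAs are shown because they differ at few bases. The RefSeq mature 5p sequences are printed with the seed, bases 2 to 8 from the 5′ end, in capitals, beside miR-32 and both arms of miR-455. The labels name no arm for any of them.
hsa-miR-181a-5p: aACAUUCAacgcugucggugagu
hsa-miR-181b-5p: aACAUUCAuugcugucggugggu
hsa-miR-32-5p: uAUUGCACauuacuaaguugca
hsa-miR-455-5p: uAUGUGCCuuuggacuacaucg
hsa-miR-455-3p: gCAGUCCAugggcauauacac
The miR-181 pair shares its seed and differs at 3 of 23 bases, A9U, C10U and A21G (base of miR-181a, position from the 5′ end, base of miR-181b), all outside the seed. The seeds of miR-32 and of both miR-455 arms differ from it and from each other.

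Set directly against miR-181a, miR-181b had higher signal for all 5 sensor probes, and 4 were called, against 3.16% of all probes compared. DDX58 was at least 11.5-fold higher, IFIH1 9.81-fold, DDX60 6.33-fold and EIF2AK2 2.31-fold, while DHX58 had a bound of 1.45-fold. EIF2AK2 lost this call with median scaling, at 0.87 on the log2 scale where the median of all probes moved by -0.30. The arrays of miR-32 and miR-455, with other seeds, lay on the side of miR-181b. Between these 2 arrays the sensors differed little, with miR-455 lower than miR-32 by 0.44 for DDX58, 0.31 for IFIH1, 0.11 for DDX60 and 0.10 for DHX58 on the log2 scale. EIF2AK2 was 0.00308 higher in miR-455, a difference that turned sign with median scaling (-0.11) and in the authors' processed values (-0.00485).

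The siRNAs against the 2 PI3K subunits differed most in the RIG-I-like receptors and least in PKR. In siPIK3R3, DDX58 was 4.42-fold and IFIH1 2.40-fold higher than in siPIK3R1, and these 2 of 5 probes were called, against 5.84% of all probes compared. DHX58 was 1.84-fold and DDX60 1.36-fold higher. EIF2AK2 differed by -0.01 on the log2 scale and by 0.45 with median scaling, which shifted the median of all probes by 0.37. In siPIK3R1 the 2 receptors also parted. IFIH1 was as high there as in miR-181b, with a difference of -0.02, whereas DDX58 was 1.04 lower than in miR-181b on the log2 scale. This gap between the 2 genes kept its direction under 5 scalings, with DDX58 lower by 0.91 to 1.15 and IFIH1 lower by 0.02 to 0.12.

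**Figure D3:**
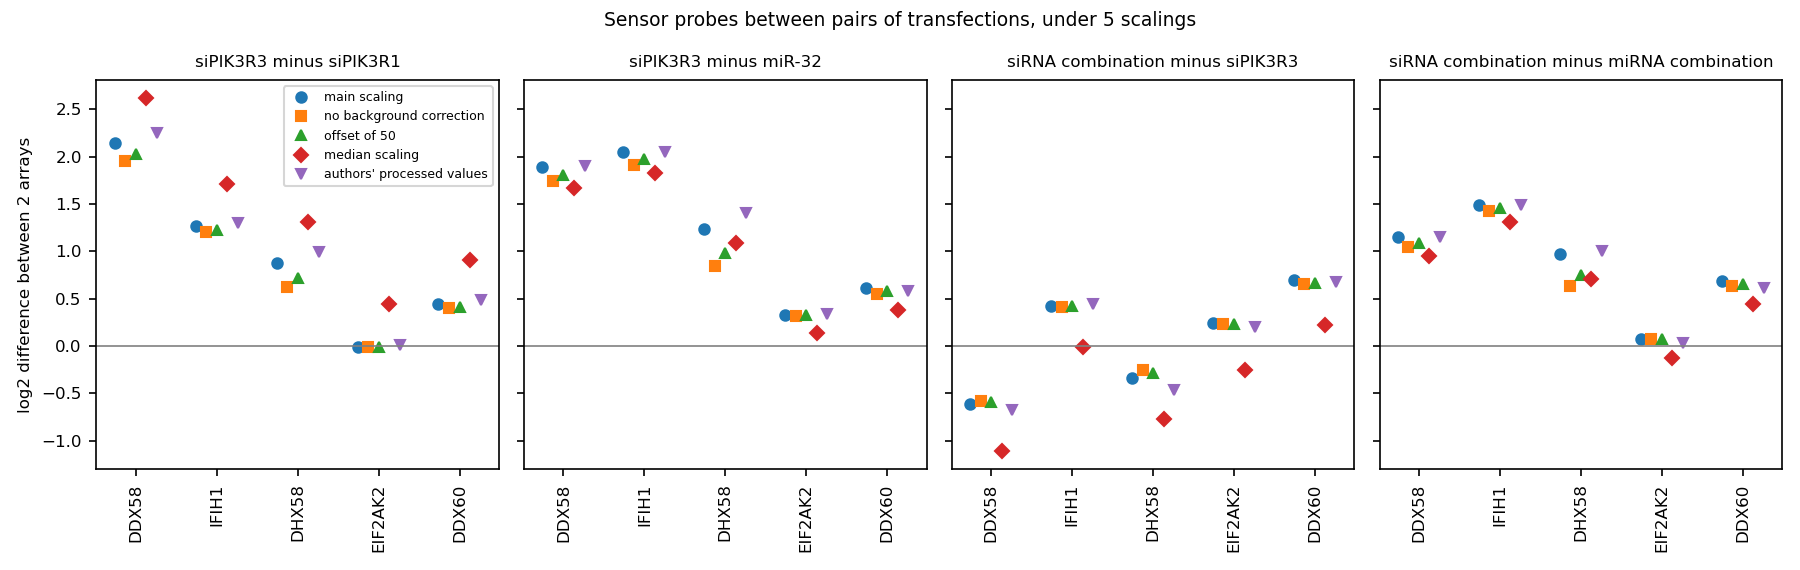
Log2 difference of each sensor probe between 2 transfections, 1 array each, in 4 pairs, with a symbol for each of 5 scalings of the same arrays. DDX58 and IFIH1 stand highest in the siPIK3R3 pairs against siPIK3R1 and miR-32, and EIF2AK2 stays between -0.26 and 0.45 in all 4 pairs.

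The signal in siPIK3R3 was also above that in miR-32, miR-455 and miR-181b for all 5 probes. By normalized level the gene with the largest fold differed between pairs, but this depended on the scaling. Relative to miR-32 it was 4.15-fold higher for IFIH1, 3.71-fold for DDX58, 2.36-fold for DHX58, 1.53-fold for DDX60 and 1.25-fold for EIF2AK2. Relative to miR-455 the folds were 5.16, 5.04, 2.52, 1.65 and 1.25 in the same order of genes. Relative to miR-181b they were 2.37, 2.15, 2.48, 1.29 and 1.06, with DHX58 the largest. Without background correction the DHX58 difference from miR-181b was 0.89 on the log2 scale, against 1.18 for IFIH1 and 1.04 for DDX58. With an offset of 50 it was 1.03, against 1.21 for IFIH1. In raw signal IFIH1 was also the largest, at 2.49-fold against 1.87-fold for DHX58. Over the 7 transfections other than miR-181a, the highest level exceeded the lowest by 6.92-fold for IFIH1, 5.04-fold for DDX58, 2.67-fold for DDX60, 2.52-fold for DHX58 and 1.48-fold for EIF2AK2. All 5 probes separated the 2 low arrays from the other 7 but graded those 7 to different degrees. EIF2AK2 graded them least, DHX58 and DDX60 more, and DDX58 and IFIH1 most widely.

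The combinations placed the sensors at different heights relative to single agents. In the siRNA combination DDX60 was 1.62-fold higher than in siPIK3R3, and DDX58 was lower, at 0.654 of the siPIK3R3 level, as was DHX58 at 0.793. These directions were kept under 5 scalings, but in raw signal all 5 probes were lower than in siPIK3R3, on an array with 223 against 392 of mean raw signal. IFIH1 was 1.34-fold and EIF2AK2 1.18-fold higher, and both turned with median scaling, at -0.01 and -0.26 on the log2 scale, where the siRNA combination lay lower overall. In the microRNA combination DDX58 was lower than in miR-181b, at 0.634 of its level. DDX60 was 1.30-fold, EIF2AK2 1.18-fold and IFIH1 1.13-fold higher, and DHX58 differed by 0.00377 on the log2 scale, with a sign that turned in the authors' processed values (-0.00784). In raw signal all 5 probes were lower than in miR-181b, at 0.496 to 0.971 of its signal, on an array with a mean of 270 against 361.

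Between the combinations, the siRNA combination was higher for all 5 probes by normalized level. IFIH1 was 2.81-fold and DDX58 2.22-fold higher and called, against 1.78% of all probes compared, DHX58 was 1.96-fold, DDX60 1.61-fold and EIF2AK2 1.05-fold higher. With median scaling EIF2AK2 turned to -0.12 and DDX58, at 0.95, lost its call, where the median of all probes moved by -0.18. In raw signal EIF2AK2 was lower in the siRNA combination, at 0.828 of its microRNA combination signal, while the other probes were higher. The doses behind the 2 mixtures are not known here.

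The order of the arrays was then compared between members. By normalized level siPIK3R3 ranked first for DDX58 and DHX58, and the siRNA combination first for IFIH1, EIF2AK2 and DDX60. By raw signal siPIK3R3 ranked first for all 5. The control and miR-181a took the last 2 places for every probe on both scales, with miR-181a lowest for DDX58, DHX58, DDX60 and EIF2AK2 by normalized level, and the control lowest for IFIH1. The undetected DHX58 values of these 2 arrays have no order between them. For EIF2AK2 miR-181a differed from the control by only -0.02 on the log2 scale. The control was the lower array by raw signal, at 1632 against 1678, and with median scaling, where miR-181a differed by 0.02. Without replicates, no neighbours in these orders can be shown to differ.

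Likeness was measured as the root mean square difference of log2 levels over the 9 arrays, each probe centred on its own mean. By this measure DDX58 lay 0.54 from DDX60 and 0.56 from IFIH1, with 25 and 29 other probes closer, of 14636 detected on at least 5 arrays. DDX60 lay 0.47 from DHX58, also with 25 probes closer. EIF2AK2 lay 0.48 from DHX58, 0.65 from DDX60, 0.95 from DDX58 and 1.18 from IFIH1. Closer to EIF2AK2 than these were 2460, 8383, 13817 and 14515 probes. In the other direction, 72, 76, 182 and 187 probes were closer to these genes than EIF2AK2 was. For DHX58, 2503 probes were closer than IFIH1, and for IFIH1, 70 were closer than DHX58. The measure is not scaled, so these counts depend on how widely each probe ranges. Undetected levels entered as they were, for DHX58 4.92 in the control and 4.73 in miR-181a, and for DDX58 5.78 in miR-181a. The distances and spread of DHX58 therefore rest partly on values below detection. Spread about the own mean was 0.54 for EIF2AK2, 0.92 for DHX58 and 1.69 for IFIH1. The median distance of the eligible probes was 0.62 from EIF2AK2 and 1.74 from IFIH1. The closest probe outside the 5 lay at 0.17 for EIF2AK2 (ILMN_2390586), 0.18 for DHX58 (ILMN_1731224), 0.25 for IFIH1, 0.26 for DDX60 and 0.37 for DDX58. These probes have no gene name here, and all profiles share the same 9 arrays and their brightness.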

How the data were processed

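Total RNA of 9 KYSE30 cultures was measured on Illumina arrays, 1 per group, grouped by label. The deposited raw table holds signal intensity on a linear scale and detection p-values for 47317 probes, per the file headers, with no normalization recorded. The authors' second deposited table of intensity values is a straight line of each array's raw signal (r = 1 across probes), with background subtracted and arrays scaled to a mean of 294; the sources used here do not say how it was made. Array number limits precision. Here limma 3.58.1 in R 4.3.3 (neqc, offset 16) corrected the raw values for background from detection p, quantile normalized them and took log2. Python 3.11.15, numpy 2.4.6 and pandas 2.3.3 did the rest. For differences between arrays, undetected values were raised to the lowest detected level of their array, so such differences are bounds. Levels, orders and likeness used undetected values as they were. Differences of 2-fold or more were called, and no significance test was run. The rule was checked on simulated data, with an assumed noise and changes well above 2-fold planted in probes well above the detection limit. That check did not cover probes near the detection limit or differences near 2-fold. The members and lists were chosen with earlier results of these data known. Named probes were the 5 members and the closest probes; the 6 gene lists and the cell type markers fixed for this work were not analysed here, because no other probe has a gene name in the sources used.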

Additional observations from a re-analysis of the deposited data

How the results depend on the processing

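Of the counts of sensor probes under 9 other settings and 1 chosen after the data were seen (miR-181a as reference), 89 stayed within 1.5 times the reported count, 9 were lower and 2 higher. With median scaling siPIK3R1 had 3 probes at 2-fold and the pair of combinations 1. With the median of the other 8 arrays as reference, siPIK3R1, the microRNA combination, miR-181b, miR-455 and miR-32 each had 0 probes at 2-fold, and siPIK3R3 and the siRNA combination 3 each. At 1.5-fold miR-32 had 5 and the pair of combinations 4. With the median of the other arrays as reference, the sign turned for IFIH1 (-0.80) and DDX60 (-0.21) in miR-32, for DDX58 (-0.51), IFIH1 (-1.11) and DDX60 (-0.32) in miR-455, for DDX58 in siPIK3R1 (-0.32) and for IFIH1 in miR-181a (-3.28), and for values under 2-fold, EIF2AK2 in miR-32 and miR-455 (both -0.29) and DHX58 in miR-181b (-0.04), miR-455 (-0.06) and the microRNA combination (-0.03), because the reference itself then holds the raised level. Relative to the shift of all probes under median scaling, EIF2AK2 stood at 1.22 in siPIK3R1, 1.11 in miR-181b, 0.94 in miR-455 and 0.98 in miR-32. Of all probes, 56 to 373 (miR-32), 60 to 406 (miR-455), 14 to 541 (miR-181a) and 176 to 1268 (miR-181b) were called above the control. siPIK3R1 had 169 to 2011, siPIK3R3 362 to 1371, the microRNA combination 342 to 2354 and the siRNA one 539 to 2680. The pairs had 477 to 2593 (siRNAs), 213 to 1764 (miR-181) and 178 to 945 (combinations). Upper ends but 2593 (median scaling) were at 1.5-fold. Against the other arrays' median, miR-32 had 7, miR-455 3 and miR-181b 110. Of all probes called, the share higher moved with median scaling from 75.5% to 97.0% for miR-32, 76.2% to 93.4% for miR-455, 55.5% to 20.8% for miR-181b, 61.3% to 12.2% for siPIK3R1, 68.7% to 79.6% for siPIK3R3, 43.4% to 26.7% for the microRNA and 48.2% to 18.5% for the siRNA combination. In the pairs it moved from 49.1% to 91.1% (siRNAs), 61.1% to 16.3% (miR-181) and 70.6% to 44.1% (combinations). Without background correction it was 71.3% for siPIK3R1, 72.1% for miR-181b, 89.6% for miR-455 and 93.3% for miR-32, and with an offset of 50 it was 90.1% for miR-32 and 65.5% for miR-181b. In the authors' processed values it was 62.9% for miR-32, 46.3% for miR-181a (34.9% as reported) and 54.8% between the combinations. No paired analysis was possible because no group has more than 1 array, and none could be left out. The pathway lists were not run, since no other probe has a gene name here, and normalization without the combinations gives no value for them. DHX58 sits near the detection limit, which makes its folds bounds.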
